A study of Rattus norvegicus with 16 samples.

Results

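The 9 genes described here carry the route by which the kidney uses glutamine in acidosis, from uptake over deamination to gluconeogenesis: Slc38a1, Slc38a3, Gls2, Glud1, Glul, Got1, Got2, Gpt2 and Pck1. They were taken by gene symbol from a named list, and all 9 were found among the 32623 genes of the count table. RNA was sequenced from 2 rat kidney cell lines kept in indirect co-culture, NRK-52E, an epithelial line grown on filter inserts, and NRK-49F, a fibroblast line grown in the wells under them. All cells spent 24 h without added serum and then 48 h in medium of pH 7.4 or pH 6.0, which the sample labels write as 7 and 6. The 4 groups were NRK-52E at pH 7.4 (libraries N1, N2, N5 and N6), NRK-52E at pH 6.0 (N3, N4, N7 and N8), NRK-49F at pH 7.4 (N9, N10, N13 and N14) and NRK-49F at pH 6.0 (N11, N12, N15 and N16). Each line was always in the presence of the other line, each is a single established line, and cells cultured alone were not analysed here.

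In the acidotic kidney, proximal tubule cells take up glutamine from the blood and remove its nitrogen in the mitochondria, first by glutaminase and then by glutamate dehydrogenase, and the ammonium formed carries acid into the urine. The remaining oxoglutarate runs through part of the citrate cycle to oxaloacetate, which phosphoenolpyruvate carboxykinase passes on to glucose synthesis, a step that uses up protons. In acidotic rats, the glutamine carrier Slc38a3 and the cytosolic carboxykinase Pck1 are known for their rise in this segment, while glutamine synthetase, which consumes ammonium, is known for its fall.

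The libraries held from 16201084 (N12) to 34784862 (N16) fragments assigned to genes. Levels are given as FPM, the unit known as CPM with a read pair counted once as a fragment, after scaling with TMM factors (edgeR's trimmed mean of M values) over the 16 libraries, and they are compared between groups for 1 gene at a time, since gene lengths were not used. A gene was taken as a differentially expressed gene (DEG) when its false discovery rate (FDR) was below 0.01 in both edgeR and DESeq2. Log2 fold changes, standard errors (SE) and adjusted p-values are those of edgeR's quasi-likelihood test over all tested genes. The labels do not say whether the 4 libraries of a group are separate cultures, so the p-values measure the spread between these libraries, which may be technical. The RNA is from bulk cultures, in which fewer cells of a kind and less RNA per cell cannot be told apart.

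The proximal tubule label of NRK-52E was set against 12 marker genes of that segment. Of these, 10 had a mean below 1 FPM in NRK-52E at pH 7.4 and 9 at pH 6.0, and Slc34a1, Slc5a12 and Hnf4a were at 0 in all 8 libraries. The summed level was 28.7 to 46.5 FPM at pH 7.4 and 25.1 to 35.5 FPM at pH 6.0, most of it the water channel Aqp1. In NRK-49F the same list summed to 120.1 to 158 FPM at pH 7.4 and 359 to 543 FPM at pH 6.0, most of it the transferase Ggt1. Most of the defining markers of the proximal tubule were thus absent or close to 0 in NRK-52E, with Aqp1 as the main exception. Of 10 fibroblast markers, 6 reached a mean of 1 FPM in NRK-52E, where their sum was 6893 to 7337 FPM at pH 7.4 and 2247 to 3581 FPM at pH 6.0, with Col3a1 as the most abundant gene. In NRK-49F that sum was 15890 to 17510 FPM at pH 7.4 and 10990 to 12560 FPM at pH 6.0, and the fibroblast marker Thy1 was at 0 in all libraries of both lines. Of 10 epithelial markers, Krt8 was the most abundant in every library, and the sum was 456 to 530 FPM in NRK-52E and 795 to 955 FPM in NRK-49F at pH 7.4. At pH 6.0 it was 332 to 418 FPM and 199.9 to 221 FPM. Cdh1 and Ocln were at 0 in all NRK-49F libraries at pH 7.4, while their means reached at least 1 FPM in NRK-52E at that pH. Both fell in NRK-52E at pH 6.0, with log2 fold changes of -2.31 for Cdh1 and -2.11 for Ocln. At pH 6.0 the lines overlapped for Cdh1, with means of 0.31 FPM in NRK-52E and 0.23 FPM in NRK-49F. For Ocln they stayed apart at that pH, with means of 9.54 and 0.099 FPM. The 7 markers of the distal tubule and collecting duct summed to at most 1.86 FPM in any library. The sums of the fibroblast and epithelial markers, each carried by 1 or 2 genes, were lower at pH 6.0 in both lines, but single markers went the other way. Tjp3 rose in NRK-52E from 17.45 ± 1.58 to 43.2 ± 11.7 FPM (mean ± SD), and Col1a1 in NRK-49F had means of 6256 and 8276 FPM, without overlap and above the threshold in edgeR (adjusted p = 0.0103). The part of this in the results below was not tested.

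In NRK-52E, Glul, Glud1 and Got2 fell at pH 6.0 and Got1 and Gpt2 rose, while in NRK-49F Glul and Glud1 fell and Slc38a1, Gpt2 and Got1 rose. Pck1 had no fragment in any library and Slc38a3 almost none, so 7 of the 9 genes passed the filter on low counts and were tested. In NRK-52E, 5 of these 7 were DEGs, where 56.7% of all 13735 tested genes were DEGs. Of the 5, 2 were higher at pH 6.0 (28.2% of all tested genes were) and 3 lower (28.5%). In NRK-49F, 5 of the 7 were DEGs against 37.8% of 13339 tested genes, 3 of them higher (18.4%) and 2 lower (19.4%). For the 7 genes the median log2 fold change was 0.08 in the epithelial line, against 0.0014 for all tested genes, and 0.16 in the fibroblast line, against -0.0029. With so many genes changed, these shares are no result about the route as a whole, and what follows is the account of each step.

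**Figure D1:**
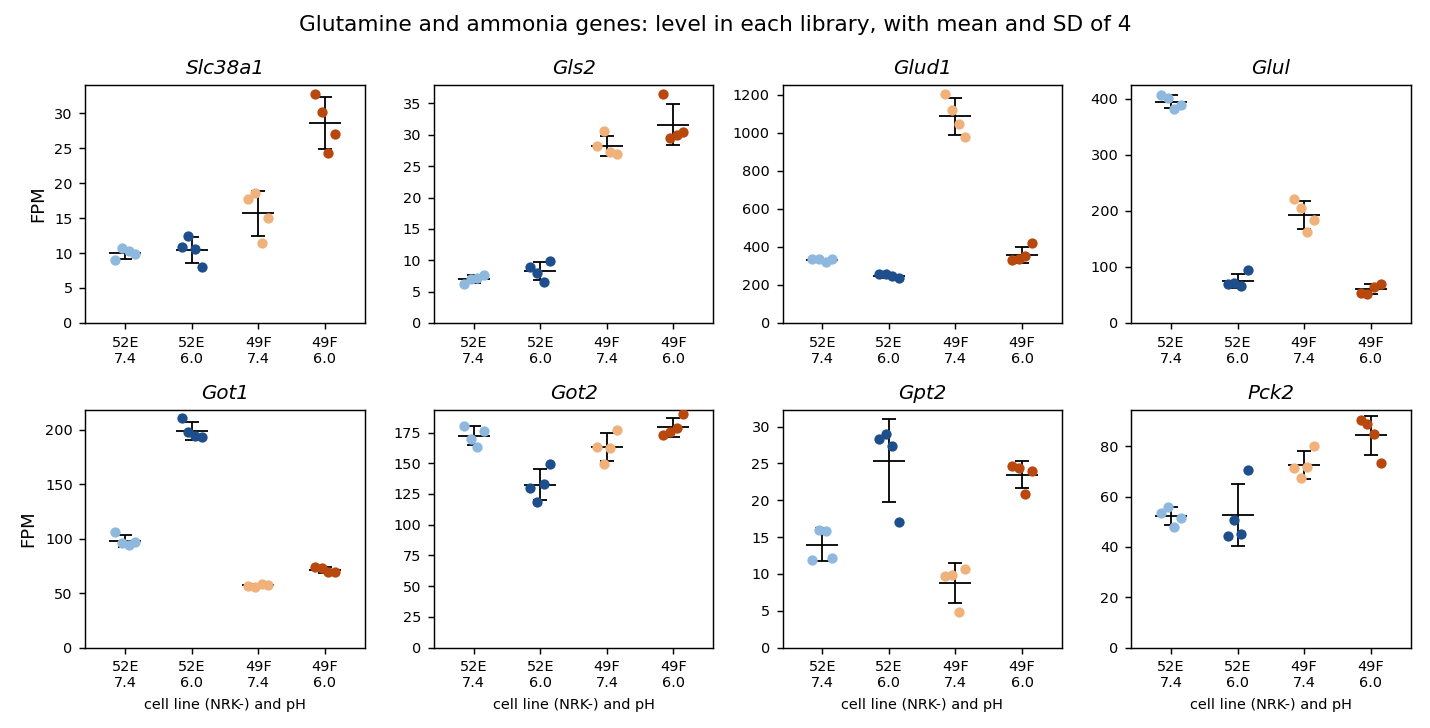
Level in FPM (vertical axis, starting at 0) of Slc38a1, Gls2, Glud1, Glul, Got1, Got2, Gpt2 and Pck2 in each of the 16 libraries (points), by cell line and pH (horizontal axis), with the mean and the SD of the 4 libraries of each group (black bars). Glul at pH 6.0 lay below 95 FPM in both lines and above 163 FPM in all libraries at pH 7.4, and Glud1 was above 976 FPM only in NRK-49F at pH 7.4.

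Uptake of glutamine was represented by 2 sodium-coupled carriers of the cell membrane. Slc38a1 (ENSRNOG00000005291, chromosome 7 of rn6) carries small neutral amino acids into many cell types. In NRK-49F its level was 17.8, 18.6, 11.4 and 15.04 FPM at pH 7.4 and 32.8, 30.1, 24.3 and 27.1 FPM at pH 6.0. All 4 acidic libraries of the fibroblast line lay above all 4 control libraries, and its expression rose by a log2 fold change of 0.86 (SE 0.16, adjusted p = 7.11e-04 from edgeR). In NRK-52E the level was 8.95, 10.8, 10.3 and 9.80 FPM at pH 7.4 and 10.9, 12.4, 10.6 and 8.01 FPM at pH 6.0. There the groups overlapped, and the log2 fold change of 0.08 (SE 0.16, adjusted p = 0.67 from edgeR) was within the spread between libraries; scaled by library totals alone it was -0.12. The 2 pH effects differed by -0.79 on the log2 scale (SE 0.23, adjusted p = 0.00876 from edgeR for the interaction of cell line and pH). This difference was close to the threshold. With 1 library left out, it stayed a DEG call without N1, N3, N4, N9, N10 or N15. Leaving out N2, N5, N6, N7, N8, N11, N12, N13, N14 or N16 in turn ended the call at values from -0.82 to -0.67, as did testing without a filter on low counts (-0.77). The call was kept with DESeq2's size factors (-0.81) and with library totals (-1.03).

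Slc38a3 (ENSRNOG00000016827, chromosome 8) is the carrier by which the proximal tubule takes glutamine from the blood side. Its counts were 6, 3, 6 and 4 fragments in the NRK-52E libraries at pH 7.4 and 8, 10, 5 and 8 at pH 6.0. In NRK-49F they were 2, 0, 0 and 0 fragments at pH 7.4 and 5, 0, 4 and 12 at pH 6.0. These were at most 0.49 FPM, the groups of each line overlapped, and the gene was not tested in any comparison. The lines did not overlap at pH 7.4, with 3 to 6 fragments in NRK-52E and 0 to 2 in NRK-49F, a difference that was not tested. The order of the 4 means, with NRK-52E at pH 6.0 first, has overlapping neighbours throughout.

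Deamination begins with glutaminase, which splits glutamine into glutamate and ammonium. Gls2 (ENSRNOG00000031612, chromosome 7) encodes the liver-type enzyme. In NRK-52E its level was 6.22, 6.98, 7.13 and 7.70 FPM at pH 7.4 and 8.94, 8.02, 6.54 and 9.91 FPM at pH 6.0. In NRK-49F it was 28.2, 30.6, 27.3 and 26.97 FPM at pH 7.4 and 36.4, 29.4, 30.0 and 30.5 FPM at pH 6.0. The pH groups overlapped in both lines, with log2 fold changes of 0.26 (SE 0.175, adjusted p = 0.199 from edgeR) in NRK-52E and 0.16 (SE 0.11, adjusted p = 0.227) in NRK-49F. The lines themselves were far apart, since every NRK-49F library lay above every NRK-52E library, by about 4.03-fold at pH 7.4 and 3.79-fold at pH 6.0 in the fit. The 2 pH effects differed by 0.09 (SE 0.19, adjusted p = 0.722), which was within the spread and was -0.15 with library totals.

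Glud1 (ENSRNOG00000057367, chromosome 16), glutamate dehydrogenase, releases the other nitrogen of glutamine as ammonium. In NRK-49F its level was 1203, 1121, 1048 and 977 FPM at pH 7.4 and 329, 336, 351 and 422 FPM at pH 6.0. All acidic libraries were far below the control libraries, with the acidic mean at 33.0% of the control mean, and expression fell by a log2 fold change of -1.60 (SE 0.11, adjusted p = 4.96e-07 from edgeR). Only 4.51% of all tested genes had a more negative log2 fold change in that line. In NRK-52E the level was 334, 335, 319.7 and 334 FPM at pH 7.4 and 255, 257, 245 and 236 FPM at pH 6.0. The groups did not overlap, and the fall was smaller, with a log2 fold change of -0.40 (SE 0.07, adjusted p = 5.42e-04). With library totals it was -0.61, also a DEG call. The column names carry a further number (21 or 22 in the epithelial line, 20 or 21 in the fibroblast line) whose meaning is not given, with 2 libraries for each number and pH. Within number 21 the effect in NRK-52E was -0.40 and within number 22 -0.43, and with 2 libraries per group neither passed the test. With this number as covariate over all 8 libraries, all pH calls of the 7 tested genes were kept and none was gained in either line, with Glud1 in NRK-52E at -0.40. The 2 pH effects differed by 1.18 (SE 0.13, adjusted p = 1.20e-06 for the interaction). The 4 groups ranked from NRK-49F at pH 7.4, which was apart from all others, to NRK-49F at pH 6.0 and NRK-52E at pH 7.4, which overlapped, and NRK-52E at pH 6.0. At pH 7.4 the level in NRK-52E was 30.4% of that in NRK-49F, and at pH 6.0 it was 69.1%.

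Glul (ENSRNOG00000049560, chromosome 13), glutamine synthetase, works against the release of ammonium by joining it to glutamate. Its level in NRK-52E was 407, 401, 381 and 389 FPM at pH 7.4 and 70.1, 71.2, 66.8 and 94.2 FPM at pH 6.0. The acidic libraries were below the control libraries by a wide gap, the acidic mean was 19.2% of the control mean, and the log2 fold change of -2.37 (SE 0.12, adjusted p = 1.29e-07 from edgeR) was the largest in size among the 7 tested genes in that line. Of all genes tested in NRK-52E, 5.39% had a more negative one. In NRK-49F the level was 221, 205, 163 and 184 FPM at pH 7.4 and 54.1, 52.2, 64.6 and 70.0 FPM at pH 6.0. These groups were apart as well, with a log2 fold change of -1.68 (SE 0.12, adjusted p = 5.71e-07), and 4.15% of all tested genes had a more negative one. The 2 effects differed by -0.70 (SE 0.17, adjusted p = 0.00249 for the interaction), with the larger fall in NRK-52E. Within the further numbers of the column names, the log2 fold change was -2.53 and -2.24 in NRK-52E and -1.99 and -1.37 in NRK-49F, and each passed the test. At pH 7.4 the epithelial line had 2.04-fold the level of the fibroblast line. At pH 6.0 the lines overlapped, with a difference of 0.33 (SE 0.12, adjusted p = 0.0231), which became a DEG call without N16 (0.40), with DESeq2's size factors (0.41) and with library totals (0.48).

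The transaminases pass the amino group of glutamate on to other acids and so form oxoglutarate. Got1 (ENSRNOG00000016356, chromosome 1) is the cytosolic aspartate aminotransferase. In NRK-52E it was found at 106, 95.8, 94.0 and 96.8 FPM at pH 7.4 and at 211, 198, 194 and 194 FPM at pH 6.0. The acidic libraries lay far above the control libraries, 2.04-fold in the fit, a log2 fold change of 1.03 (SE 0.08, adjusted p = 1.01e-06 from edgeR). In NRK-49F it was found at 56.6, 56.0, 58.6 and 57.1 FPM at pH 7.4 and at 74.3, 72.7, 69.3 and 69.2 FPM at pH 6.0. The 2 groups were narrow and apart, and expression rose by 0.32 on the log2 scale (SE 0.08, adjusted p = 0.00562). This call was close to the threshold: it was lost without N9, N10, N11, N12, N14 or N15 and kept without N13 or N16, at values from 0.31 to 0.35. Within number 21 the value was 0.26 and not significant, against 0.40 within number 20, and with the number as covariate the call was kept (0.32). The 2 effects differed by 0.70 (SE 0.10, adjusted p = 2.24e-05 for the interaction). With library totals this difference was smaller, at 0.45, and still a DEG call. The order of the groups was NRK-52E at pH 6.0, NRK-52E at pH 7.4, NRK-49F at pH 6.0 and NRK-49F at pH 7.4, with no overlap between neighbours.

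Got2 (ENSRNOG00000011782, chromosome 19) is the mitochondrial form of the same enzyme. In NRK-52E its level was 180.2, 169.6, 163 and 176 FPM at pH 7.4 and 129.7, 119, 133 and 149 FPM at pH 6.0. The acidic libraries lay below the control libraries, so that the mitochondrial form fell where the cytosolic form rose, with a log2 fold change of -0.36 (SE 0.09, adjusted p = 0.00439 from edgeR). The call was lost without N1, N2, N3 or N7 at values from -0.38 to -0.35, and within number 21 (-0.51) and number 22 (-0.25), and kept with the number as covariate (-0.37). With library totals it was kept at a larger fall of -0.57. In NRK-49F the level was 163, 149.2, 162 and 177 FPM at pH 7.4 and 173, 176, 178 and 190.1 FPM at pH 6.0. These groups overlapped, and the log2 fold change of 0.14 (SE 0.08, adjusted p = 0.183) was within the spread. The 2 effects differed by -0.51 (SE 0.12, adjusted p = 0.00153 for the interaction). The first 3 groups in the order of levels, NRK-49F at pH 6.0, NRK-52E at pH 7.4 and NRK-49F at pH 7.4, each overlapped the next, and NRK-52E at pH 6.0 was at or below 149 FPM, just under the lowest library of the others (149.2 FPM).

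Gpt2 (ENSRNOG00000059579, chromosome 19), the mitochondrial alanine aminotransferase, forms alanine from pyruvate with the amino group of glutamate. In NRK-52E its level was 11.9, 15.9, 15.8 and 12.1 FPM at pH 7.4 and 28.3, 28.9, 27.3 and 17.03 FPM at pH 6.0. Of the acidic libraries N8 was the lowest, but it was above all controls, and Gpt2 rose by a log2 fold change of 0.87 (SE 0.18, adjusted p = 0.00162 from edgeR). With libraries scaled by their totals alone it was 0.66 and no longer a DEG, and within number 22, which holds N8, it was 0.68 and not significant, against 1.02 within number 21 and a call at 0.86 with the number as covariate. In NRK-49F the level was 9.75, 9.81, 4.76 and 10.7 FPM at pH 7.4 and 24.7, 24.4, 20.9 and 24.0 FPM at pH 6.0. All acidic libraries had more than any control library, and the log2 fold change was 1.42 (SE 0.20, adjusted p = 1.09e-04), above that of 96.5% of all genes tested in that line. The difference of -0.55 between the lines (SE 0.29, adjusted p = 0.126) was within the spread, so a different response was not shown.

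Pck1 (ENSRNOG00000028616, chromosome 3), the cytosolic phosphoenolpyruvate carboxykinase that leads from oxaloacetate to glucose, had 0 counts in all 16 libraries. A count of 0 allows a level of up to 0.0936 to 0.199 FPM per library, taking 3 counts as the limit and counting error only. Pck2 (ENSRNOG00000018536, chromosome 15), the mitochondrial form, is given beside it. In NRK-52E it was 53.7, 56.1, 47.9 and 51.4 FPM at pH 7.4 and 44.4, 50.8, 45.3 and 70.6 FPM at pH 6.0. In NRK-49F it was 71.2, 67.3, 71.7 and 80.1 FPM at pH 7.4 and 90.4, 88.7, 85.0 and 73.2 FPM at pH 6.0. The pH groups overlapped in both lines, and the log2 fold changes of 0.03 (SE 0.15, adjusted p = 0.873 from edgeR) and 0.22 (SE 0.10, adjusted p = 0.0798) did not pass the test, the first being below 0 with library totals. Between the lines, Pck2 was lower in NRK-52E at pH 7.4, with a log2 fold change of -0.47 (SE 0.13, adjusted p = 0.00271), a call kept only without N7, N8, N11 or N16 and otherwise lost (-0.51 to -0.35). At pH 6.0 it was lower by -0.68 (SE 0.13, adjusted p = 1.01e-04), a call kept without any 1 library. The cytosolic form of the last step was thus below detection at either pH, and a pH effect on the mitochondrial form was not shown.

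The comparison of the cell lines at the same pH asks which steps they share at the level of RNA. At pH 7.4, 6 of the 7 tested genes were DEGs between the lines, against 59.8% of 14679 tested genes. Higher in NRK-52E were 3 of them (27.9% of all tested genes), Glul with a log2 fold change of 1.03, Got1 with 0.78 and Gpt2 with 0.66. Lower in NRK-52E were 3 (31.9%), Gls2 with -2.01, Glud1 with -1.72 and Slc38a1 with -0.66. At pH 6.0, 5 of 7 were DEGs against 63.2%, with Got1 higher in NRK-52E by 1.48 (30.7% of all tested genes were higher) and 4 lower (32.5%). These were Gls2 with -1.92, Slc38a1 with -1.45, Glud1 with -0.53 and Got2 with -0.43. Not all of these calls were stable. Gpt2 at pH 7.4 (SE 0.21, adjusted p = 0.00941 from edgeR) kept its call only without N1, N3, N6, N8 or N14 and lost it without any other library, at values from 0.46 (without N13) to 0.72. Slc38a1 at pH 7.4 lost its call without N1, N3, N9 or N10 (-0.61 to -0.53) and with library totals (-0.27), a scaling under which Got2 at pH 7.4 became a DEG at 0.47. That scaling shifted the median of all genes by 0.39 at pH 7.4, by 0.15 at pH 6.0 and, for the pH effect in NRK-52E, by -0.21. The share of DEGs that were higher in NRK-52E then went from 46.7% to 65.9% at pH 7.4, and that of DEGs higher at pH 6.0 in NRK-52E from 49.7% to 37.6%.

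The interaction of cell line and pH tests whether the lines responded differently. Of the 7 tested genes, 5 had such a difference, against 36.9% of 14679 tested genes. Glud1 and Got1 had the more positive effect in NRK-52E (2 genes, with 19.3% of all tested genes), and Slc38a1, Glul and Got2 the more positive effect in NRK-49F (3 genes, with 17.5%). The share of all interaction calls with a more positive effect in NRK-52E was 52.4%, and 33.8% when libraries were scaled by their totals, which moved the median difference by -0.24. For Got1 the effects had the same sign and differed in size, as they did for Glul and Glud1. For Slc38a1 and Got2 the effect passed the test in 1 line and not in the other. For Gls2 and Gpt2 no difference between the lines was shown.

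The other genes of the route were taken from 8 lists by role, of which 87 of 89 genes are in the count table; Aldh4a1 and Ogdh were not analysed here. In NRK-52E, 68 of these genes were tested and 31 were higher and 13 lower at pH 6.0 (28.2% and 28.5% of all tested genes), and the median of their log2 fold changes was 0.36. In NRK-49F, 71 were tested, 27 were higher and 9 lower (18.4% and 19.4%), with a median of 0.26. The medians of all tested genes were near 0 (0.0014 and -0.0029). Where counts of a list are given below, the same shares of all tested genes stand beside them, and no list was tested against these. By name, the pair of DEGs with the largest change in each list and line is given.

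**Figure D2:**
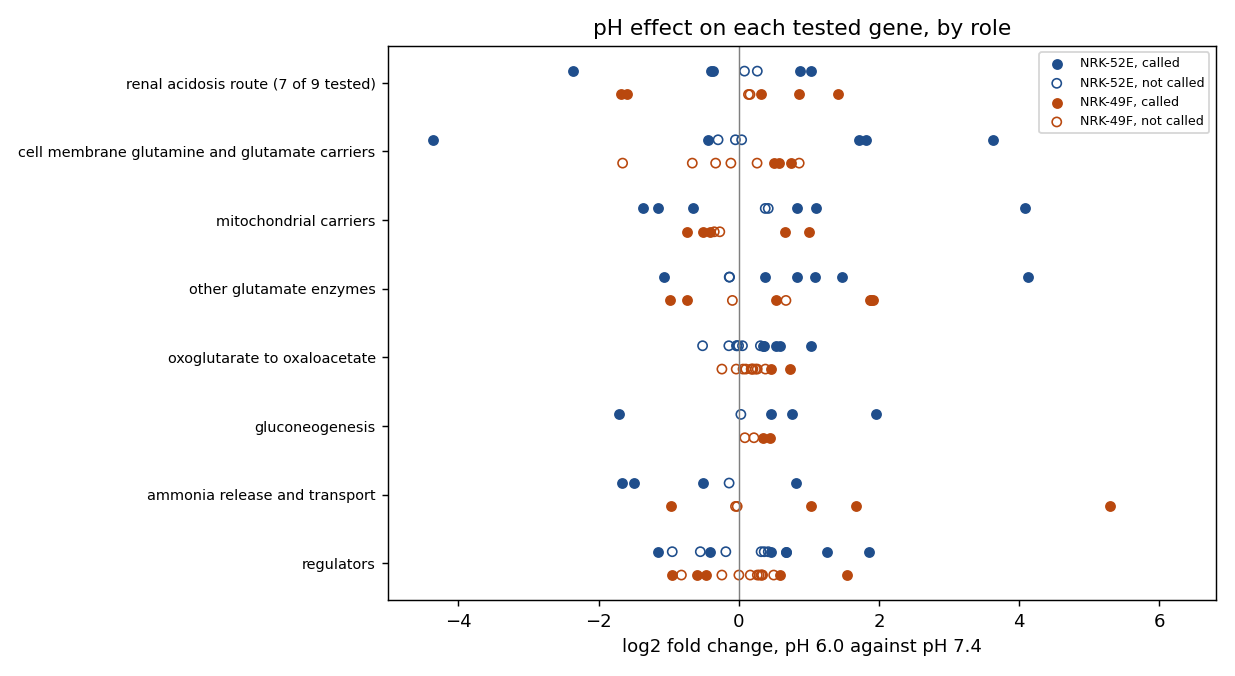
Log2 fold change at pH 6.0 against pH 7.4 (horizontal axis) of each tested gene of the roles shown (vertical axis), for NRK-52E (blue) and NRK-49F (orange). Filled points ("called") are DEGs with an FDR below 0.01 in edgeR and DESeq2, and open points are other tested genes. Ampd3 in NRK-49F lies farthest right at 5.30 and Slc7a8 in NRK-52E farthest left at -4.37.

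A further list held 11 genes for carriers of glutamine and glutamate, with the chain gene Slc3a2 counted among them. Of 8 tested in NRK-52E, 3 rose and 2 fell (28.2% and 28.5% of all tested genes), and the median of the log2 fold changes was -0.0044. In NRK-49F, 3 rose and none fell of 9 tested (18.4% and 19.4%), with a median of 0.26. With an FDR of 0.05 in both tools, 3 fell there as well. Slc3a2, the chain shared by several exchangers for large amino acids, rose in NRK-52E from 120.1 ± 7.93 to 1472 ± 391 FPM (mean ± SD, n = 4 libraries), by 3.63 on the log2 scale (SE 0.19). In NRK-49F the mean went from 242 to 406 FPM, and the gene rose by 0.74 (SE 0.12). The 2 effects on Slc3a2 differed by 2.87 (SE 0.22, adjusted p = 1.66e-08 from edgeR). Slc7a8, a partner of Slc3a2 that exchanges neutral amino acids, fell in NRK-52E from 108 to 136 counts per library to 1 to 17 counts, a log2 fold change of -4.37 (SE 0.59) that was -6.265 without N8, the library with 17 counts. Slc7a6, which exchanges glutamine and basic amino acids, fell in NRK-52E (-0.44, SE 0.10) and rose in NRK-49F (0.57, SE 0.12), with a difference of -1.02 (SE 0.15, adjusted p = 2.90e-05).

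Of 8 mitochondrial carriers, 3 rose and 3 fell in NRK-52E (28.2% and 28.5% of all tested genes), with a median of 0.40. In NRK-49F, 2 rose and 3 fell of 7 tested (18.4% and 19.4%), with a median of -0.35. Slc25a22, a glutamate carrier, rose in NRK-49F from a mean of 65 FPM to 130.1 FPM, by 1.001 on the log2 scale (SE 0.09), and in NRK-52E by 1.10 (SE 0.13). Slc25a18, the other glutamate carrier, rose in NRK-52E from 3 to 5 counts per library to 58 to 88, a log2 fold change of 4.08 (SE 0.29) on a low level of 3.44 FPM. Slc25a13, an aspartate and glutamate exchanger, fell in NRK-52E (-1.37, SE 0.17), and the pyruvate carrier subunit Mpc1 fell in NRK-49F (-0.74, SE 0.11).

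Amidotransferases use the amide nitrogen of glutamine for synthesis. Counts of this list are not given, and not all of its genes rose. Pfas fell in NRK-52E, with a log2 fold change of -0.89 (SE 0.10), and rose in NRK-49F by 0.82 (SE 0.12). Asns, asparagine synthetase, rose in NRK-52E from 9.51 ± 2.01 to 87.6 ± 8.99 FPM, by 3.22 on the log2 scale (SE 0.15), and in NRK-49F by 0.61 (SE 0.12). Gmps, of guanine nucleotide synthesis, rose in NRK-52E by 1.45 (SE 0.08) and in NRK-49F by 0.79 (SE 0.09). Gfpt2, of hexosamine synthesis, rose in NRK-49F from 9.44 ± 0.44 to 28.3 ± 1.19 FPM (log2 fold change 1.58, SE 0.11) and had 0 counts in every NRK-52E library. Cad, of pyrimidine synthesis, rose in NRK-49F by 1.36 (SE 0.15), and its effect in NRK-52E of 0.16 (SE 0.13) did not pass the test and was below 0 with library totals, with a difference of -1.20 between the lines (SE 0.22, adjusted p = 2.06e-04 from edgeR).

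Of 8 other enzymes of glutamate, 5 rose and 1 fell in NRK-52E (28.2% and 28.5% of all tested genes; median 0.60), and 4 rose and 2 fell in NRK-49F (18.4% and 19.4%; median 0.60). Bcat1, which transfers amino groups of branched-chain amino acids, rose in NRK-52E from 3 to 6 counts per library to 58 to 104, a log2 fold change of 4.12 (SE 0.28). In NRK-49F, where it stood at 381 ± 42.2 FPM at pH 7.4, it rose by 0.54 (SE 0.10). Aldh18a1, of proline synthesis, rose in NRK-52E by 1.48 (SE 0.11). Gclc, the catalytic subunit for the first step to glutathione, rose in NRK-49F by 1.92 (SE 0.12) and in NRK-52E by 0.84 (SE 0.11). In NRK-49F Psat1, a transaminase of serine synthesis, rose by 1.89 (SE 0.15). The effect on Psat1 in NRK-52E was -0.14 (SE 0.10) and did not pass the test, and the lines differed by -2.04 (SE 0.18, adjusted p = 9.05e-08).

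For the steps from oxoglutarate to oxaloacetate, 5 of 12 genes were higher and none lower in NRK-52E (28.2% and 28.5% of all tested genes; median 0.18), and 2 of 12 were higher and none lower in NRK-49F (18.4% and 19.4%; median 0.20). With libraries scaled by totals, 3 were higher and 1 lower in NRK-52E, without N2 3 were higher, and without N8 1 was lower. The DEGs with the largest change were subunits of succinate dehydrogenase, Sdhb with 1.02 (SE 0.11) and Sdhd with 0.59 (SE 0.11) in NRK-52E, and Sdhd with 0.73 (SE 0.10) and Sdha with 0.46 (SE 0.08) in NRK-49F. Sdha rose in NRK-52E as well (0.53, SE 0.09). Of 9 genes of gluconeogenesis, Fbp1, G6pc and Slc2a2 were among those that did not pass the filter in either line. Pc, pyruvate carboxylase, rose in NRK-52E from 13.3 ± 0.43 to 51.1 ± 10.3 FPM, by 1.95 on the log2 scale (SE 0.14), against 0.09 (SE 0.10) in NRK-49F, which did not pass the test. Fbp2, the muscle-type fructose bisphosphatase, fell in NRK-52E from 38 to 63 counts per library to 7 to 21 (-1.72, SE 0.29). In NRK-49F the glucose 6-phosphate carrier Slc37a4 and the phosphatase G6pc3 rose, by 0.45 (SE 0.10) and 0.35 (SE 0.09), and G6pc3 rose in NRK-52E as well, by 0.75 (SE 0.12). In NRK-49F Slc37a4 lost its call without N9 (0.42), and G6pc3 without N9, N10, N11, N12 or N15 (0.32 to 0.35). In all, 3 of 5 tested genes of gluconeogenesis rose and 1 fell in NRK-52E (28.2% and 28.5% of all tested genes; median 0.46), and 2 of 4 rose and none fell in NRK-49F (18.4% and 19.4%; median 0.28). In NRK-52E, Slc37a4 (0.46, SE 0.12) lost its call without N1, N2, N3, N5, N6 or N7 (0.42 to 0.48) and with library totals.

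Of 12 genes that release or transport ammonium, 7 did not pass the filter in NRK-52E and 6 in NRK-49F. Rhcg and Rhbg, the ammonia channels of the collecting duct, the exchanger Slc9a3 of the proximal tubule and Cps1 of the urea cycle had 7 or fewer counts in every library. Among 5 tested in NRK-52E, 1 rose and 3 fell (28.2% and 28.5% of all tested genes; median -0.51), and among 6 in NRK-49F, 3 rose and 1 fell (18.4% and 19.4%; median 0.50). Ampd3, which releases ammonium from adenosine monophosphate, rose in NRK-49F from 3.45 ± 0.48 to 137 ± 51.8 FPM, by 5.30 on the log2 scale (SE 0.27). In NRK-52E it fell from 22.4 ± 3.23 to 7.87 ± 1.03 FPM, by -1.50 (SE 0.16). The lines differed by -6.82 (SE 0.32, adjusted p = 6.43e-11 from edgeR). Ada, adenosine deaminase, fell in NRK-52E by -1.66 (SE 0.29) from 2.84 ± 0.38 FPM, and Gldc, of glycine cleavage, rose in NRK-49F by 1.67 (SE 0.19) from 2.23 ± 0.07 FPM.

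Of 17 genes of regulators of this route, Hnf4a had at most 2 counts in any library. In NRK-52E, 5 rose and 2 fell of 13 tested (28.2% and 28.5% of all tested genes), but with library totals 3 rose and 4 fell. Atf4, a transcription factor of amino acid shortage, rose from 247 ± 29.4 to 892 ± 198 FPM (log2 fold change 1.86, SE 0.15), while in NRK-49F its effect of 0.26 (SE 0.13) passed the test only without N16 (0.38), with a difference of 1.59 between the lines (SE 0.21, adjusted p = 6.25e-06 from edgeR). Elavl1, which encodes HuR, a protein that binds and stabilizes messenger RNA, rose in NRK-52E by 1.25 (SE 0.11), Khsrp by 0.68 (SE 0.16), Sirt4 by 0.68 (SE 0.14) and Crtc2 by 0.46 (SE 0.10). Hnrnpd, which encodes AUF1, another protein that binds messenger RNA, fell by -1.15 (SE 0.10), and the kinase gene Mapk14 by -0.41 (SE 0.09). Of these, Khsrp lost its call without N1, N3, N4, N6 or N7 (0.56 to 0.67) and Crtc2 without N6 (0.41), and both did with library totals (0.48 and 0.25). For Khsrp the pH groups overlapped.

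Among the regulators in NRK-49F, Khsrp rose by a log2 fold change of 0.59 (SE 0.15). Hnrnpd fell by -0.96 (SE 0.11), Sirt4 by -0.60 (SE 0.17) and the glucocorticoid receptor gene Nr3c1 by -0.47 (SE 0.13). Apart from Hnrnpd, these calls were close to the threshold. Leaving out 1 library ended the call of Khsrp for N9, N10, N11, N15 or N16 (0.56 to 0.61), of Sirt4 for any but N11 (-0.65 to -0.51) and of Nr3c1, whose pH groups overlapped, for any but N14 or N16 (-0.47 to -0.41). Sirt4, which encodes a mitochondrial protein known to restrain glutamate dehydrogenase, had opposite effects in the 2 lines, with a difference of 1.26 (SE 0.20, adjusted p = 5.74e-05).

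Promoter sequences were taken from RefSeq (build GRCr8) as the 250 bases before each gene's start, a different build from that of the counts. Of the 9 genes, 8 had an entry, with 10 promoters in all, and Slc38a3 had none. They were searched on both strands for TGACGTCA (cAMP response element), found in 1.59% of all 33469 promoters of that length, TGACNNNGC (core of the antioxidant response element), found in 10.1%, and TGATGNAA (core of the composite element of ATF4), found in 3.40%. The first was found in none of the 10. TGACNNNGC was found in the promoter of Got1 and in 1 of 2 of Gls2, and TGATGNAA in those of Got1 and Slc38a1. The promoters of Glud1, Glul, Got2, Gpt2 and Pck1 held none of the 3. Such a match is a description of the letters and not a binding site.

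The promoters of Got1, which rose in both lines, and of Got2, which fell in NRK-52E, are shown since they belong to 2 forms of 1 enzyme that moved apart. That of Got1 lies at chr1:252329872-252330121 on the minus strand and that of Got2 at chr19:9180178-9180427 on the plus strand. They are written from 5′ to 3′, with matches in capitals. In Got1 the match to TGATGNAA starts 167 bases and the match to TGACNNNGC 44 bases before the gene start, both on the opposite strand and without overlap.
Got1: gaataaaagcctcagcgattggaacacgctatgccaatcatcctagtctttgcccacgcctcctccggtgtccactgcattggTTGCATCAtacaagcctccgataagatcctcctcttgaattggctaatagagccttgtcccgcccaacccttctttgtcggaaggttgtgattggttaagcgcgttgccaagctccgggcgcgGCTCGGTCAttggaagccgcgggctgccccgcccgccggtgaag
Got2: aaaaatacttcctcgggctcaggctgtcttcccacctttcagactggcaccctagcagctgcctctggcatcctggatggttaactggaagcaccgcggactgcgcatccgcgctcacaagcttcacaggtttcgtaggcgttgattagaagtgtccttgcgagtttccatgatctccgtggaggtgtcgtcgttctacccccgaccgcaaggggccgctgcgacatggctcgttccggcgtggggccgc

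For each of the 7 tested genes, the 2 genes with the most similar pattern were found by Pearson's r of log2(FPM + 1) over the 16 libraries among 8926 genes with a mean of at least 10 FPM. For Slc38a1 these were Rad50 (r = 0.971) and Ap3b1 (0.961), for Gls2 Manba (0.989) and Cdhr1 (0.988), and for Glud1 Map3k14 (0.979) and Nbl1 (0.977). For Glul they were Ppfibp2 (0.995) and Ror1 (0.992), for Got1 Ube2g1 (0.991) and Srebf2 (0.990), for Got2 Mapk14 (0.933) and Polm (0.931), and for Gpt2 Letm1 (0.970) and Arhgef12 (0.956). The libraries form 4 groups, so these values mostly describe the order of the group means, and the best of 8926 genes is high by selection.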

How the data were processed

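The deposited counts are the authors' raw featureCounts values per Ensembl gene, from paired reads of poly(A) RNA aligned to rn6. The study's methods name tophat2 as the aligner, while the submitters' processing notes name HISAT2 2.1.0. Fragments that map to several places were counted at each, so genes with near-identical copies or processed pseudogenes are uncertain, and no strand setting is named, so overlapping antisense genes cannot be told apart.

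Groups were taken from the sample labels, and no library was left out. Counts were tested in R 4.3.3 with edgeR 4.0.16 (quasi-likelihood test, TMM, filterByExpr) and DESeq2 1.42.0 (Wald test), in the 8 libraries of each cell line for pH and in 1 model of 4 groups and 16 libraries for the interaction and the differences between the lines, with Benjamini-Hochberg adjustment over all tested genes. The SE was derived from edgeR's F statistic, as |log2 fold change| over its square root. The scripts were first tested on simulated data. No 2 libraries of a group agreed within sampling noise (smallest chi-square per degree of freedom 6.12).

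The genes named are the 9 listed ones, Pck2, the 2 DEGs with the largest absolute log2 fold change of each of 8 lists and cell line, the DEGs among the regulators, and the 2 genes most like each listed gene, and some results that fall under this rule are left out. Pfas was named in addition, as a gene of its list that fell in NRK-52E. Members and lists were chosen with earlier results of these data known. As alternatives, TMM was replaced by DESeq2's size factors and by library totals, the filter was dropped or set to 1 CPM in 4 or more libraries, and further fits used each tool alone, an FDR of 0.05, all 16 libraries in 1 fit for pH, the further number of the column names as covariate and each number alone, and each library left out. Protein sequences were not analysed here.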

Additional observations from a re-analysis of the deposited data

Results flagged for a closer look

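In 6 of 36 groups of 4 values (9 listed genes and Pck2, without groups at 0), 1 library lay far from the other 3, where chance gives about 1 in 20, or 1.8. In NRK-52E, Glud1 at pH 7.4 was 319.7 FPM in N5 against 334 to 335 FPM in the others. At pH 6.0, N8 stood apart for Glul with 94.2 FPM against 66.8 to 71.2 FPM, and for Gpt2 with 17.03 FPM against 27.3 to 28.9 FPM. In NRK-49F, Gpt2 at pH 7.4 was 4.76 FPM in N13 against 9.75 to 10.7 FPM, and Slc38a3 at pH 7.4 was 0.115 FPM in N9, from 2 fragments, against 0. With 3 values at 0 that library is always far from the others, so this case says nothing, and 5 remain. At pH 6.0, N11 was the highest library for Gls2 with 36.4 FPM against 29.4 to 30.5 FPM. Without N8 or without N13 the pH effects on Glul and Gpt2 kept their calls.

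The pH effects of the 2 lines differed for 5 listed genes, as tested by the interaction: -0.79 for Slc38a1, 1.18 for Glud1, -0.70 for Glul, 0.70 for Got1 and -0.51 for Got2, each as NRK-52E minus NRK-49F on the log2 scale.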

How the results depend on the processing

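No log2 fold change that was a DEG call changed sign under any alternative, while some that were not calls did, such as those of Slc38a1 for pH in NRK-52E and of Gls2 for the interaction. Of 301 log2 fold changes of listed genes under settings other than a left-out library, 287 kept their side of the threshold, 9 lost a call and 5 gained one, and with a library left out 412 of 448 kept it, 35 lost and 1 gained a call. For the other named genes, 711 of 777 and 566 of 632 kept it. Of 608 counts of higher or lower genes per list, 542 stayed within 1.5 times the value given, and 26 of the 66 that did not came from a single number of the column names.

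With 1 library left out, 4 to 5 listed genes were DEGs for pH in either line, 4 to 6 and 5 to 6 between the lines at pH 7.4 and pH 6.0, and 4 to 5 for the interaction. Within number 21 of the column names, 3 listed genes were DEGs for pH in NRK-52E, and within number 22 there were 2, where all 8 libraries gave 5. Over all genes, 2820 were DEGs in NRK-52E within number 22 against 7793, and 1980 in NRK-49F within number 21 against 5039, with 2 libraries per group. No paired analysis was possible because each library has a number of its own. The further number of the column names, shared by 2 libraries per pH, was used as a covariate instead, for the pH effects within each line. The differences between the lines and the interaction were fitted without it. Too few fragments for a test were found for Slc38a3, for Pck1 and, of 12 genes of ammonium release and transport, for 7 in the epithelial and 6 in the fibroblast line. For Pck1, with 0 counts, absence and a level below this depth cannot be told apart.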
